A study of Homo sapiens with 4 samples.

Results

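The IGF1R gene on the plus strand of chromosome 15 (hg19, 99192200 to 99507759) held 3 of the 1181 consolidated regions of RNA recovered by iCLIP in HEK293F cells, and with them 281 of the 4021 reads of experiment 1 and 158 of the 6032 reads of experiment 2. The regions were chosen by position, as those that overlap these gene limits on the plus strand by at least 1 nt. The gene was singled out for its read-rich region, so read numbers are given here as a description, with no test. HEK293F is a human embryonic kidney line. The iCLIP method cross-links proteins to RNA with UV light, pulls the complex down with an antibody, and copies the trimmed RNA into cDNA. The copying often halts at the cross-linked nucleotide, and the 5' end of a read then lies just beside it. The 4 libraries, all from UV-treated HEK293F cells, were a pull-down with an antibody to MOV10 and a pull-down with an irrelevant antibody, raised against zebra finch FMRP, in each of 2 experiments. Replicate 1 is called experiment 1 and replicate 2 experiment 2. Per the labels, each list of reads belongs to the MOV10 and the control pull-down of an experiment alike, and the list itself does not say from which of them a read came. Each value below therefore belongs to an experiment, MOV10 and control could not be compared, and no region is described as bound by MOV10.

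IGF1R encodes the receptor for insulin-like growth factors, a tyrosine kinase of the cell surface made of ligand-binding alpha chains and membrane-spanning beta chains. Bound by IGF1 or IGF2, it signals through IRS proteins to the PI3K and AKT kinases and through RAS to the MAP kinases, and so promotes growth and survival. MOV10 is an RNA helicase found with Argonaute proteins and with the decay factor UPF1, and is known for contacts in the 3' untranslated regions of messenger RNAs.

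The 3 regions lay far apart in the gene. The read-rich region ran from 99250937 to 99251000, a width of 64 nt, and began 58737 nt into the gene, at 18.6% of its length. The second region, from 99456361 to 99456383 (23 nt), began at 83.7% of the gene length and 205360 nt of sequence without a listed region separated it from the first. The third, from 99505295 to 99505342 (48 nt), began at 99.2% of the gene length, 2464 nt before the gene's 3' limit. No listed region lay on the minus strand inside these limits (0 regions). Exon limits on hg19 were not used here, because the annotation at hand, GENCODE 29, is of build GRCh38, and no position was carried over from it. Distances counted back from the 3' limit of the gene can be set side by side. The read-rich region lies 256822 to 256759 nt before that limit on hg19, and coding exon 2 of the 21 exons of the IGF1R transcript lies 256968 to 256423 nt before the limit on GRCh38. The second region lies 51398 to 51376 nt before the limit, and coding exon 8 lies 51486 to 51248 nt before it. The third region lies 2464 to 2417 nt before the limit, and exon 21, which is 7470 nt long and holds the 3' untranslated region, ends at the limit. Whether such distances are equal in both builds was not tested, so no region is assigned to an exon.

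Nearly all IGF1R reads came from the read-rich region. It held 276 reads of experiment 1, which was 6.86% of that list (exact Clopper-Pearson 95% interval 6.10 to 7.69), and 155 reads of experiment 2, which was 2.57% (interval 2.185 to 3.001). These intervals cover counting error only, and reads that copy the same molecule are not independent. A read here is a listed entry, whose name gives what was read as a copy number (below). Shares and ranks by reads thus count entries, not copies. Over all regions the median was 2 reads (experiment 1) and 1 read (experiment 2). By reads, the IGF1R region ranked 1 among the 1181 regions in experiment 1, ahead of a region of chromosome 12 with 80 reads. It ranked 11 in experiment 2, where the first region, on chromosome 8, held 539. At least 50 reads were found in 2 regions of experiment 1 and in 19 regions of experiment 2, and the IGF1R region was the 1 region that reached this number in both.

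**Figure D1:**
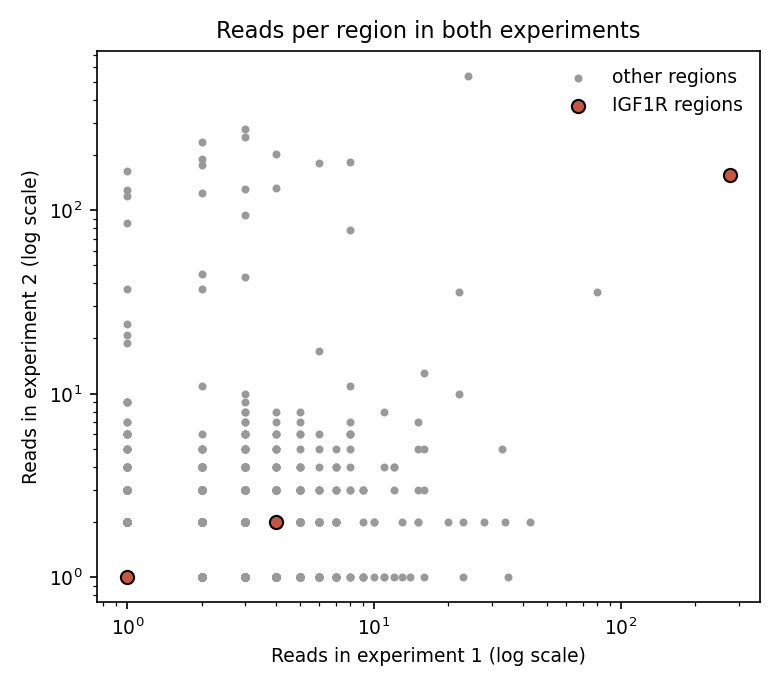
Reads per region in experiment 1 (x axis, log scale) and experiment 2 (y axis, log scale) for all 1181 regions, where many points coincide at low values. The read-rich IGF1R region stands alone at the upper right with 276 and 155 reads, and the other 2 IGF1R regions lie at 1 and 1 and at 4 and 2 reads.

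In both experiments the reads of the read-rich region began at a nearly fixed base, but this base was not the same. In experiment 1, 268 of 276 reads (97.1%, exact interval 94.4 to 98.7) had their 5' end at 99250937, 4 at 99250938 and 4 at 99250939. In experiment 2, 152 of 155 reads (98.1%, interval 94.4 to 99.6) had their 5' end at 99250955 and the other 3 at 99250956. The most used 5' ends were thus 18 nt apart, with that of experiment 2 downstream, and the 5' ends of the 2 experiments did not overlap. The distance was 18 nt in each of the 3 groups into which the reads fall by the start of their names (no prefix, 06 and 07), and also by distinct fragments, by copy numbers and with mapping qualities of 30 or more. The intervals of the shares above cover counting error only, as reads on the same fragment are not independent. By distinct fragments the shares were 81.8% in experiment 1 and 94.1% in experiment 2.

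The 3' ends did not overlap between the experiments either. In experiment 1 they lay between 99250957 and 99250965, and 232 of 276 reads (84.1%) ended at 99250965. In experiment 2 they lay between 99250973 and 99251000, and 107 of 155 reads (69.0%) ended at 99250999. Reads of experiment 1 covered 29 nt of the region and those of experiment 2 covered 46 nt, and only the 11 nt from 99250955 to 99250965 were covered by both. The 64 nt of the region thus consist of 18 nt seen in experiment 1 alone, the shared 11 nt, and 35 nt seen in experiment 2 alone. All 276 reads of experiment 1 still covered the base where most reads of experiment 2 began.

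**Figure D2:**
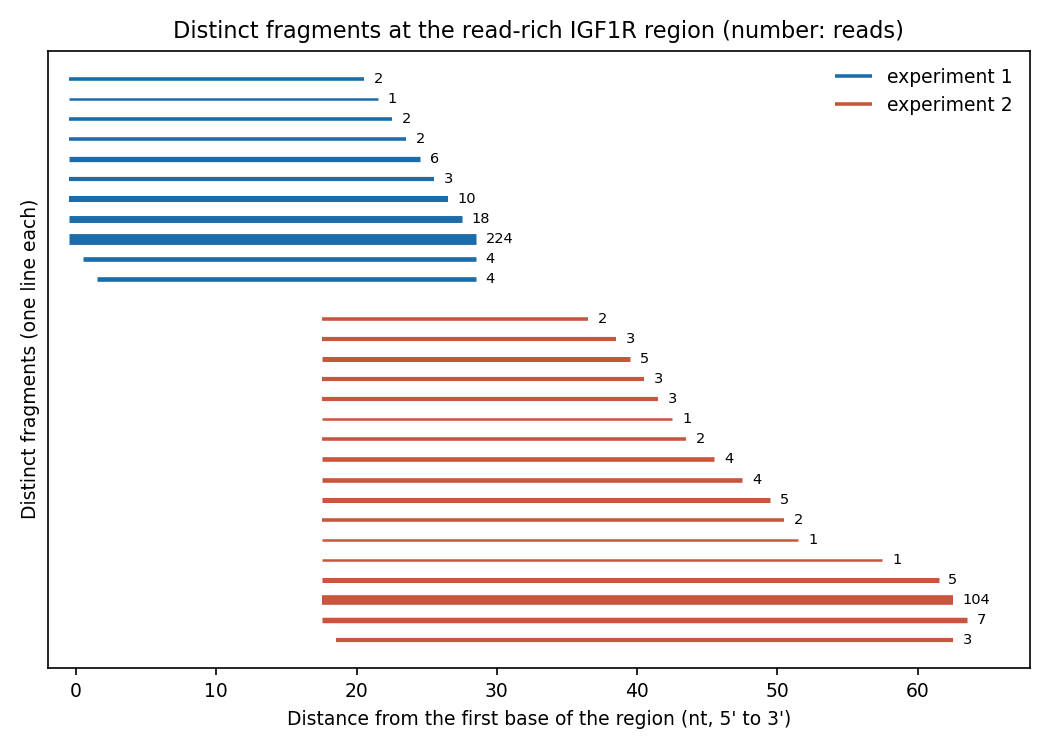
Each line is a distinct fragment (reads with the same ends) at the read-rich IGF1R region, drawn from its 5' to its 3' end against the distance from the first base of the region (x axis, nt). The number beside a line and its thickness give its reads. The 11 fragments of experiment 1 begin 0 to 2 nt into the region and the 17 of experiment 2 begin at 18 or 19 nt.

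Distinct fragments, in which reads with the same ends are counted once, differed mostly in their 3' end. Experiment 1 had 11 and experiment 2 had 17, of which 9 and 16 shared the most used 5' end of their experiment. The most read fragment of experiment 1, from 99250937 to 99250965, was 29 nt long and had 224 of the 276 reads (81.2%). Its next was 1 nt shorter at the 3' end and had 18 reads. The most read fragment of experiment 2, from 99250955 to 99250999, was 45 nt long and had 104 of 155 reads (67.1%), and each of the other 16 had 1 to 7. Shorter fragments formed a ladder of 3' ends below the most read fragment in both experiments, down to a width of 21 nt in experiment 1 and 19 nt in experiment 2. Most fragments recurred among the groups of read names: 8 of 11 and 14 of 17 were seen in at least 2 of the 3 groups, and 5 and 8 in all 3.

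Distinct fragments are the same reads collapsed by their ends, so they are not independent of the choice of this region, and their shares are given as a description. The 11 of 1806 fragments in experiment 1 (0.609%, exact interval 0.304 to 1.09) stood against 17 of 1656 in experiment 2 (1.03%, interval 0.599 to 1.64), a log2 ratio of 0.75 in which these intervals overlap. A two-sided Fisher's exact test over all regions called 0.423% of them and 0 of the 3 IGF1R regions. It takes fragments of a single list per experiment as independent, and it compares these lists, so nothing is read from it here and the shares are not shown to be equal. By reads the direction was the opposite, with a log2 ratio of shares of -1.42. When fragments whose ends both lie within 1 nt of each other were joined, 1 family was left in experiment 1 and 7 in experiment 2, a log2 ratio of 3.03. All 11 fragments of experiment 1 were thus linked to each other by steps of 1 nt.

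Copies were concentrated in a few reads. Read names end in 2 numbers, and the first of these was read as the number of copies of a sequence, which is an inference from the names. The region held 9359 copies in experiment 1, 56.7% of all 16518 copies in that list and rank 1 among the regions, and 889 in experiment 2, 1.01% of 88074 and rank 20. In experiment 1 the most copied read of each group of names had 3408 copies (no prefix), 2609 (06) and 2737 (07), and the next most copied read of any group had 34. In experiment 2 the most copied reads had 261 (no prefix), 203 (06) and 167 (07) copies, and the next had 15. These 3 reads lay on the most read fragment in both experiments and had a mapping quality of 70. Together they made up 93.5% of the copies in experiment 1 and 71.0% in experiment 2. Without them, 605 and 258 copies were left. Reads of 1 copy numbered 161 of 276 (58.3%) and 116 of 155 (74.8%).

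**Figure D3:**
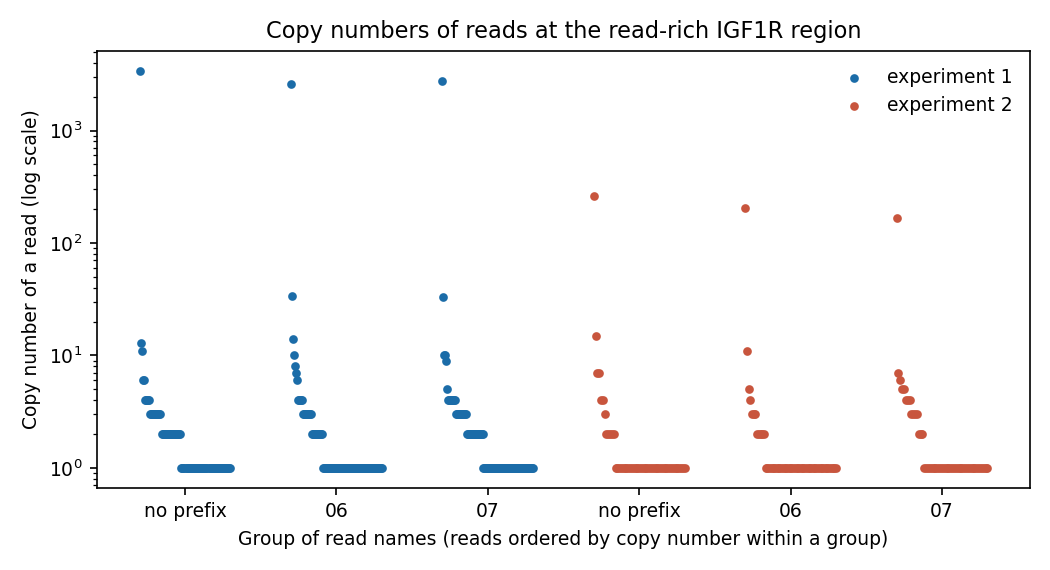
Copy number (y axis, log scale) of each read at the read-rich IGF1R region, ordered from high to low within each group of read names (x axis), for experiment 1 (blue) and experiment 2 (red). In each of the 6 sets a single read stands far above the rest, at 2609 to 3408 copies in experiment 1 and 167 to 261 in experiment 2.

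The groups of read names were alike in reads and main ends within each experiment, and less so in mapping quality in experiment 1. Experiment 1 had 88 reads with no prefix, 92 named 06 and 96 named 07, and experiment 2 had 51, 54 and 50. The share of reads at the most used 5' end was 96.6%, 98.9% and 95.8% in experiment 1, and 100%, 98.1% and 96.0% in experiment 2. The most used 3' end held 84.1%, 83.7% and 84.4% of reads in experiment 1, and 62.7%, 74.1% and 70% in experiment 2. Distinct fragments numbered 10, 7 and 7 in experiment 1, and 13, 12 and 14 in experiment 2. Reads of mapping quality under 30 made up 7.95%, 14.1% and 19.8% in experiment 1, and 3.92%, 3.70% and 6% in experiment 2. The lowest mapping quality was 3, 19 and 19 in experiment 1 and 3 in each group of experiment 2. These groups of names share the fragments described above and are not replicates of an experiment. The labels give a barcode with random positions in the primer of each library, and whether it was used to count molecules is not given in the sources used here.

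Mapping quality, as which the deposited score was read, differed between the experiments at this site. In experiment 1 it ran from 3 to 70 with a median of 49. Of the 276 reads 178 had exactly 49, 48 (17.4%) had 70, and 39 (14.1%) were under 30. In experiment 2 it also ran from 3 to 70, but the median was 70, with 130 of 155 reads (83.9%) at 70 and 7 (4.52%) under 30. The most read fragments, which share neither ends nor width between the experiments, differed likewise. On the 29 nt fragment of experiment 1, 157 of 224 reads had 49, 45 had 70 and 16 had 19, while on the 45 nt fragment of experiment 2 all 104 had 70. In experiment 1 reads at 49 had 1 to 34 copies each and together 459, and those at 70 together had 8847. Thus most reads of experiment 1 had 49, while most of its copies were on reads with 70.

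Read width moved with mapping quality only in part. In experiment 1 the median was 49 both for the 52 reads shorter than 29 nt and for the 224 reads of 29 nt. In experiment 2 it was 52 for the 44 reads shorter than 45 nt and 70 for the 111 as long or longer. No read of at most 27 nt reached 70 in either experiment: the 30 such reads of experiment 1 had a median of 46.5 and a highest value of 61, and the 19 of experiment 2 a median of 31 and a highest value of 56. Such limits by width are not particular to IGF1R. In other regions, on chromosome 1 and picked as examples, reads of 25, 27 and 28 nt in experiment 1 had 56, 67 and 70. A read of 26 nt there in experiment 2 had 61. All 7 reads under 30 in experiment 2 were at most 24 nt wide. In experiment 1 only 11 of the 39 reads under 30 were at most 27 nt wide, and 20 lay on the 29 nt fragment. Above 27 nt, 48 of 246 reads reached 70 in experiment 1 and 130 of 136 in experiment 2. Median read widths were 29 and 45 nt, so the experiments differ in width as well. The part of width and of sequence differences in the mapping quality was not tested.

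**Figure D4:**
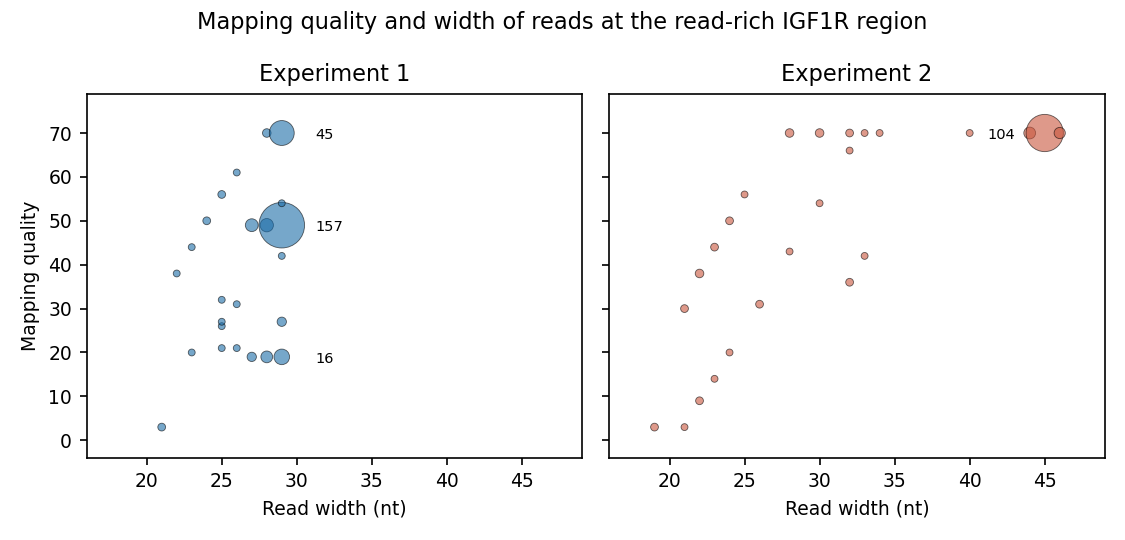
Mapping quality (y axis) against read width (x axis, nt) for reads at the read-rich IGF1R region in each experiment, with the area of a point growing with its reads and numbers beside the main points of at least 15 reads. In experiment 1 the most reads (157) lie at 29 nt and 49, and in experiment 2 (104) at 45 nt and 70.

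The other 2 regions of the gene held few reads. In the second region, experiment 1 had a read of 23 nt from 99456361 to 99456383 with 2 copies and a mapping quality of 44, and experiment 2 had a read of 22 nt from 99456362 to 99456383 with 1 copy and a mapping quality of 38. Neither reached the highest mapping quality of 70, which 688 of the 1181 regions had for their best read in both experiments, the read-rich and the third IGF1R regions included. In the third region, experiment 1 had 4 reads of 1 copy each, all with their 5' end at 99505295 and widths of 47 or 48 nt. Experiment 2 had 2 reads of 1 copy each, both with their 5' end at 99505296 and widths of 28 and 39 nt. All 6 reads had a mapping quality of 70. With 1 and 4 reads against 1 and 2, no difference between experiments was detectable at this depth.

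In these regions the 5' ends of the experiments lay 1 nt apart, as in most of the list. In each of them the most used 5' end of experiment 2 lay 1 nt downstream of that of experiment 1. The list of regions, by its name, holds only those present in both experiments, which limits what values over all regions say of agreement. Over all 1181 regions the distance between the most used 5' ends was 1 nt downstream in 832, 0 in 164, and at least 18 nt in either direction in 71 (6.01%). The read-rich IGF1R region is among these 71. A match of fragments between experiments needed equal 3' ends. The 5' ends had to be equal or, in experiment 2, shifted downstream by 1 nt. By this rule 0 of the 11 fragments of experiment 1 in the read-rich region matched. The same held when both ends were allowed to differ by up to 3 nt. Both results follow from the 5' ends given above and add nothing to the distance. The second region had 1 such match. The third had none, since its 3' ends differed. Over all regions, 162 had no match.

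Large distances were common among the regions with many reads in at least 1 experiment. In 20 regions, experiment 1 or experiment 2 had at least 50 reads. Of these, 12 (60.0%) had 5' ends at least 18 nt apart and 14 had no matching fragment. The limit of 18 nt is the distance of the IGF1R region itself, which is counted in both numbers. Only the IGF1R region had at least 50 reads in both experiments. In the rest of the 20 the most used 5' end of 1 experiment rests on fewer reads, often on 1 to 8 in experiment 1. Of the other 1161 regions, 59 (5.08%) had 5' ends at least 18 nt apart and 148 had no match. At a limit of 10 nt, not taken from the IGF1R region, the numbers were 13 of the 20 (65.0%) and 100 of the 1161 (8.61%). These 20 regions were picked by their reads, and their number of reads, copies and fragments differs from that of the other regions along with the distance, so this is a description without a test. The reads of both experiments covered 17.2% of the width of the IGF1R region in common, against a median of 62.9% over the 20 regions and 97.0% over all. This share was as low or lower in 11 of the 1181 regions and in 3 of the 20, the IGF1R region included in both counts.

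**Figure D5:**
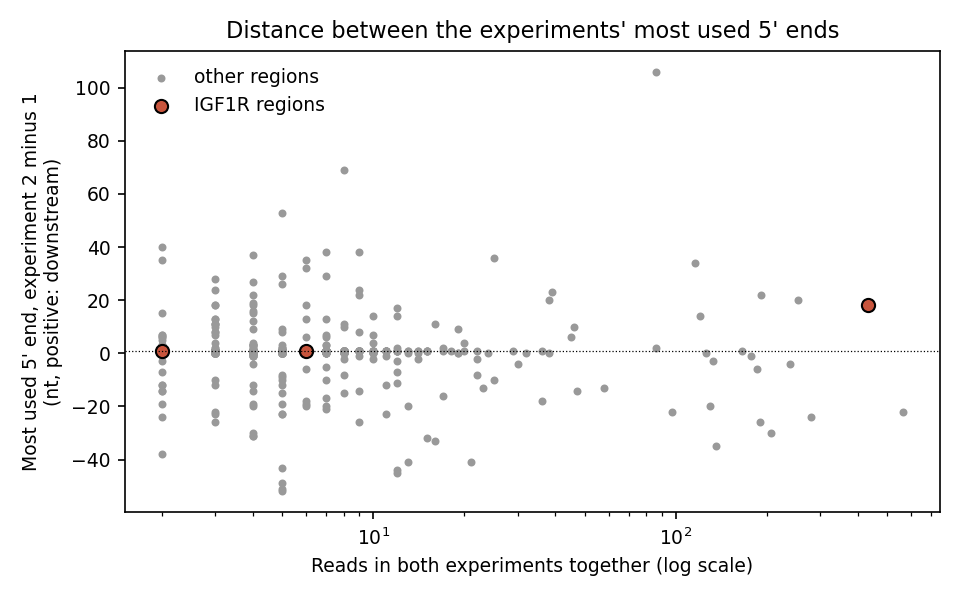
Distance from the most used 5' end of experiment 1 to that of experiment 2 (y axis, nt, positive when downstream) against the reads of both experiments together (x axis, log scale) for 1181 regions, with a dotted line at 1 nt. The read-rich IGF1R region lies at 18 nt with 431 reads, and the other 2 IGF1R regions lie on the line.

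The regions nearest to that of IGF1R in their shares of reads are given for comparison. All held fewer reads in experiment 1, as any region must beside the one that ranked 1 there. Closest by the log2 shares of reads was the plus strand of chromosome 12 from 20704373 to 20704498, at a distance of 2.76 on the log2 scale, with 80 and 36 reads. It held 36 and 11 distinct fragments, its most used 5' end took 20% and 66.7% of reads, and these ends lay 34 nt apart. Next was the minus strand of chromosome 8 from 70602300 to 70602430, at a distance of 3.96, with 24 and 539 reads, 25.0% and 62.2% at the most used 5' end, and a distance of 22 nt between these ends, with that of experiment 2 upstream. The third was the plus strand of chromosome 21 from 9827396 to 9827479, at a distance of 4.21, with 22 and 36 reads, 18.2% and 97.2% at the most used 5' end, and that of experiment 2 lying 13 nt upstream. In experiment 1 only 2 regions had at least 50 reads, and the other of them, on chromosome 12, had the 20% given above. Ranks of the share at the most used 5' end compare unlike numbers of reads in that experiment. They cannot say whether the share sets IGF1R apart. Its 97.1% in experiment 1 ranked 13 among the 20 regions with many reads, behind 12 regions at 100% that held only 1 to 8 reads there, and the median over all 1181 regions, most of which hold few reads, was 100% in both experiments. The likeness rests on 2 values per region, and says nothing of shared function.

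By total reads, the region of chromosome 8 was also the nearest, with 563 against 431. The next were chromosome 20 from 4760925 to 4760972 with 3 and 278 reads, and chromosome 2 from 178087376 to 178087437 with 3 and 251. On them, 92.8% and 91.2% of the reads of experiment 2 began at the most used 5' end. In that experiment the 98.1% at IGF1R ranked 2 among the 20 regions with many reads, after a region of chromosome 16 with 99.4% of 164 reads. In each of the regions of chromosomes 20 and 2, the 3 reads of experiment 1 all began at a single base. The most used 5' end of experiment 2 lay 24 nt upstream of it on chromosome 20 and 20 nt downstream on chromosome 2.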

How the data were processed

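The authors deposited a list of aligned reads per experiment (2 lists) and a list of consolidated regions. By its name the list of regions holds those present in both experiments, so values over all regions describe only such regions. The build was hg19 and the tools were bedtools, SAMtools, Novoalign and CASAVA 1.8.2, per the submitters' processing notes, while how regions were called is not given in the sources used here. Each deposited score of a read, a whole number from 0 to 70, was read as mapping quality from its values. Reads (17 to 91 nt wide) were tied to the region they overlap, and positions are 1-based. The lists hold 4021 and 6032 reads inside regions, which is not library depth and limits precision. Shares have exact Clopper-Pearson 95% intervals. Shares of distinct fragments were tested by two-sided Fisher's exact tests over all 1181 regions with Benjamini-Hochberg adjustment (threshold 0.05). The calculation was checked on simulated independent fragments, where recovery of changes was required only with many more fragments than here. That check does not show the power of the test on these data. The test takes fragments as independent. Tests were run with scipy 1.17.1, tables made with pandas 2.3.3 and numpy 2.4.6, and figures with matplotlib 3.10.9, under Python 3.11.15.

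The gene, its regions and all comparisons were chosen with earlier results of these data known. The rule for names was IGF1R with each of its regions, plus the 3 regions nearest in log2 shares of reads and the 3 nearest in total reads among those with at least 50 reads. Other genes of the IGF pathway were not analysed here and no region was assigned to an exon, because the annotation is of another build. Distances to the gene's 3' limit were compared between builds. Sequences were not analysed here, as no hg19 genome was used. Alternatives covered mapping quality, the unit counted, groups of read names, totals, tolerances and each experiment alone.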

Additional observations from a re-analysis of the deposited data

How the results depend on the processing

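For 8 results, 41 alternatives were run. In 24 of them the direction and the side of the threshold were as before, or a count stayed within 1.5 times or a share within its interval. The 18 nt between the most used 5' ends was the same in the 6 alternatives run, which were chosen after seeing the data. These 6 recount or subset the same reads, nearly all of which begin at 1 base per experiment, so they could hardly change it. The difference in share of distinct fragments (log2 ratio 0.75) turned to -1.42 by reads and to -0.30 by distinct 5' ends (3 and 2), and the cause was not tested. Reads at the site numbered 139 (no prefix), 146 (06) and 146 (07), because each group of names holds part of the 431 reads, and leaving out an experiment gave 155 to 276. The share at the most used 5' end in experiment 1 was 81.8% by distinct fragments, 99.9% by copies and 98.9% in reads named 06. In experiment 2 it was 94.1% by distinct fragments, 99.7% by copies and 100% both within 1 nt and in reads with no prefix. Over both experiments it was 62.2%, and 97.1% to 98.1% when an experiment was left out, since the experiments use different ends. With both ends required to be identical, 0 fragments of the gene matched, against 1. No paired analysis was possible because no read can be given to a MOV10 or control library. The few fragments per region limit what differences can be seen.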
